A study of Homo sapiens with 8 samples.

Results

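The tubulin isotypes examined here were the genes TUBA1A, TUBA1B, TUBA1C, TUBA4A, TUBB2A, TUBB2B, TUBB3, TUBB6 and TUBG1. Every non-control probe whose gene name in the array files is 1 of these was taken, which gave 14 probes of 9 genes among 50599 probes on each array. RNA came from DLD1, an established line of human colorectal adenocarcinoma cells. Each culture was given the control siRNA siCONT or 1 of the siRNAs siUHRF1-1 and siUHRF1-2, which target UHRF1, a protein that guides the maintenance of DNA methylation. After 48 h they received 300 nM trichostatin A (TSA), which inhibits histone deacetylases, or the solvent ethanol (mock), for another 24 h.

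The labels give 4 groups of 2 arrays: siCONT with mock, siUHRF1 with mock, siCONT with TSA and siUHRF1 with TSA. The arrays of a siUHRF1 group carry the 2 different siRNAs and count as n = 2. The difference between both siCONT arrays of an agent was close to the noise of repeated spots within an array, at 1.18 times that noise with mock and 1.09 times with TSA. They were counted as 1 sample, so siCONT levels have no SD. The arrays of a siUHRF1 group, which differ in siRNA, stood apart by 12.7 times the spot noise with mock and 10.5 times with TSA. Depletion was transient, by siRNA in 1 cell line. Nothing states that the siCONT arrays of an agent came from separate cultures. The p-values rest on 1 spread per probe that all 4 groups share. Most of that spread lies between the 2 siRNAs against UHRF1, also in the comparison of TSA with mock in siCONT. The siCONT part of it may be technical. With siCONT as 1 sample, the spread comes from the siUHRF1 arrays alone. Mock and TSA arrays occupied different rows of the slide, and agent and row therefore cannot be told apart. In a bulk sample, fewer cells of a type and less RNA per cell cannot be told apart either.

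Tubulins of the alpha and beta families pair into the dimers from which microtubules are built, and vertebrates carry several genes, called isotypes, for each family. Gamma-tubulin sits in ring-shaped complexes, mainly at the centrosome, from which new microtubules grow. TUBB3 is best known as a neuronal isotype, and it is also found in many carcinomas. Cells adjust the amount of tubulin RNA to the free dimers in the cytoplasm, and many tubulin messages therefore respond together when microtubules are disturbed.

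The coding sequences of isotypes are alike, so the target of a probe matters for every value below. Probe A_24_P58529, named TUBA1C in the files, lists transcripts of both TUBA1B and TUBA1C. It is shown because its values differed from those of the other TUBA1C probe:
A_24_P58529: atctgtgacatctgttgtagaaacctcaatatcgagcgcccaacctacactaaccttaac
The TUBG1 probe A_23_P152768 and the only probe of TUBG2 (A_23_P78014) share 38 bases with 36 identical, and the TUBG2 probe lists TUBG1 as a target too. Capitals mark the bases that differ:
TUBG1: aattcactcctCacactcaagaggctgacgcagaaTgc
TUBG2: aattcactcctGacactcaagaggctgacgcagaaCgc
Apart from A_24_P58529, the other 13 member probes list a single RefSeq gene each, and cross-hybridisation was tested for no probe.

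The alpha-tubulin genes TUBA1A, TUBA1B and TUBA1C lie together on chromosome 12, and TUBB2A and TUBB2B are neighbours on chromosome 6. In hg19 the probes of TUBA1B, TUBA1A and TUBA1C (A_24_P188071) start at 49521633, 49579413 and 49667030 of chromosome 12. Those of TUBB2A (A_23_P19291) and TUBB2B start at 3154035 and 3224751 of chromosome 6. TUBA4A (probe A_23_P154065, from 220115070) lies on chromosome 2, TUBB3 (from 90002437) on chromosome 16, TUBB6 (from 12326476) on chromosome 18 and TUBG1 (A_33_P3363898, from 40767187) on chromosome 17.

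Of the 14 member probes, 13 were well above background on all 8 arrays, and the TUBB2B probe was so on 2. Across arrays 43.3% to 48.0% of all probes reached that mark. The UHRF1 probe A_23_P208880 fell from levels of 1.98 and 2.01 in siCONT with mock to 0.34 and −0.02 in the siUHRF1 arrays with mock. With TSA it went from 1.04 and 1.01 in siCONT to −1.55 and −2.14 in the siUHRF1 arrays. Depletion changed it by −1.83 with mock and −2.87 with TSA. UHRF1 was also lower with TSA in siCONT, where this probe changed by −0.97 and the probe A_33_P3379454 by −1.13 (limma, adjusted p = 0.0175 and 0.0494). The agents and the depletion of UHRF1 are therefore not fully separate. All 10 colon epithelial markers (EPCAM, CDX2, VIL1 and others) were above background on every array, with a summed level of 1441 to 2045 times the 75th percentile. Of 10 neuronal markers 1 or 2 were, with a summed level of 1.65 to 3.07, and NEFL, NEFM, ELAVL3, ELAVL4, STMN2, DCX and SYN1 were so on no array. The RBFOX3 probe, the brightest of these and the only 1 above background on every array, lists no RefSeq gene. Fibroblast markers above background were 0 to 3 of 6 and leukocyte markers 2 or 3 of 5. Colon epithelial levels were not all stable. With TSA in siCONT 2 of the 10 were called lower and 0 higher, against 18.6% of all probes called. These were GPA33 (log2 change −5.49) and VIL1 (−1.42). Depletion with mock called 1 higher, KRT20 (2.94), and 0 lower, against 4.12%. The limma adjusted p of GPA33, VIL1 and KRT20 were 0.0353, 0.282 and 0.189 with siCONT as 1 sample.

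Each level below is a log2 intensity from which the array's own 75th percentile was subtracted, so changes in level are log2 fold changes, and levels of different probes are not compared. A probe was called changed at a limma adjusted p under 0.05 and at least 2-fold. The adjusted p covers all probes tested in the comparison.

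**Figure D1:**
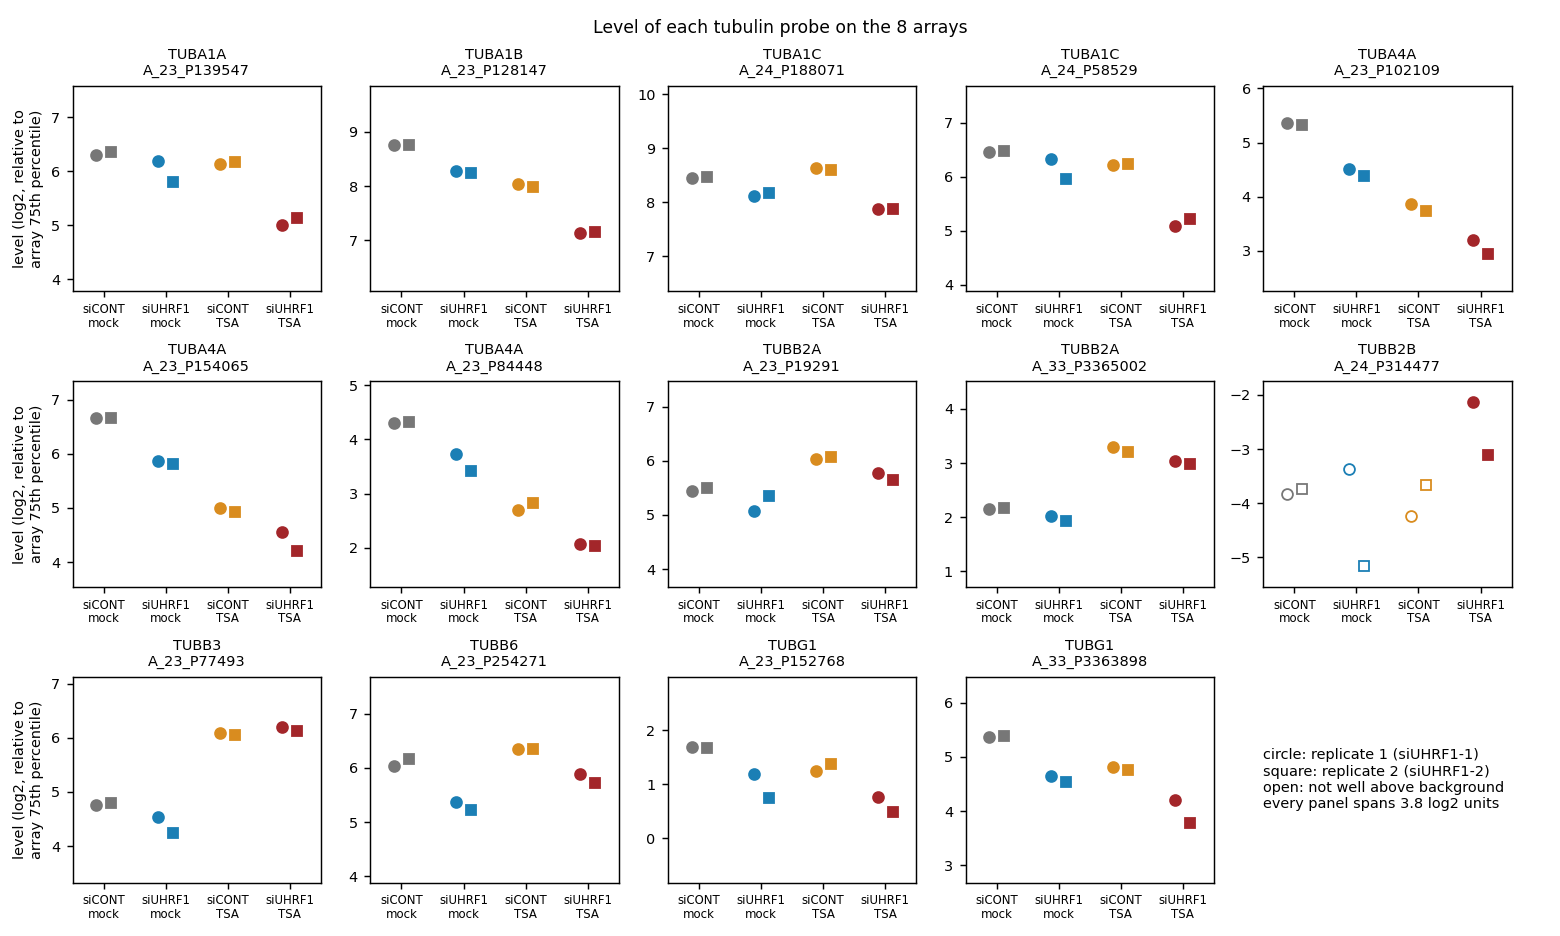
Level of the 14 tubulin probes on each of the 8 arrays. The vertical axis is the log2 intensity relative to the array's 75th percentile, circles and squares are replicates 1 and 2, and open symbols are not well above background. The TUBA4A probes step down from siCONT with mock to siUHRF1 with TSA, and TUBB3 is higher on the 4 TSA arrays than on the 4 mock arrays.

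TUBA4A, an alpha-tubulin that is abundant in platelets and neurons, had the largest decrease of the set, and its 3 probes moved alike. The probe A_23_P154065 read 6.67 and 6.65 in siCONT with mock and 5.86 and 5.81 in the siUHRF1 arrays with mock. With TSA it read 4.99 and 4.93 in siCONT and 4.55 and 4.21 in the siUHRF1 arrays. The 4 groups did not overlap, and siUHRF1 with TSA was lowest. The probe A_23_P102109 followed the same order, from 5.36 and 5.33 through 4.51 and 4.38, then 3.86 and 3.73, to 3.20 and 2.94. The probe A_23_P84448 went from 4.30 and 4.33 through 3.73 and 3.43, then 2.70 and 2.84, to 2.07 and 2.02. Against siCONT with mock, siUHRF1 with TSA was lower by 4.86-fold, 4.85-fold and 4.81-fold for the 3 probes. The log2 changes were −2.28, −2.28 and −2.27, each with an SE of 0.14 (limma, adjusted p = 0.000187, 0.00017 and 0.000183). Treating siCONT as 1 sample, these adjusted p were 0.0115, 0.0111 and 0.0113. TSA alone lowered the 3 probes in siCONT by 3.25-fold, 2.93-fold and 2.92-fold, with adjusted p of 0.00079 to 0.000972 in limma and 0.0795 to 0.09 with siCONT as 1 sample. Depletion alone gave −0.82, −0.90 and −0.74, under 2-fold for each probe, with limma adjusted p of 0.0286, 0.0217 and 0.0348. These adjusted p rose to 0.504, 0.444 and 0.537 with siCONT as 1 sample.

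TUBA1B, a housekeeping alpha-tubulin, fell with the combined treatment. It read 8.76 and 8.77 in siCONT with mock, 8.29 and 8.24 in siUHRF1 with mock, 8.03 and 7.99 in siCONT with TSA, and 7.14 and 7.16 in siUHRF1 with TSA. The groups did not overlap, and the SD over the siRNAs was 0.04 with mock and 0.01 with TSA (n = 2). The combined treatment lowered it 3.06-fold, by a log2 change of −1.61 ± 0.10 (SE; limma, adjusted p = 0.000208, or 0.0189 with siCONT as 1 sample). TSA in siCONT and depletion with mock gave −0.75 and −0.50, both under 2-fold. The limma adjusted p were 0.00346 and 0.0426, or 0.243 and 0.62 with siCONT as 1 sample.

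TUBA1A, an alpha-tubulin prominent in developing neurons, was lower mainly on the siUHRF1 arrays with TSA. Its levels were 6.30 and 6.35 in siCONT with mock, 6.19 and 5.80 in siUHRF1 with mock, 6.13 and 6.18 in siCONT with TSA, and 5.01 and 5.14 in siUHRF1 with TSA. The siUHRF1 arrays with mock differed more from each other than both siCONT groups did, and the siUHRF1 arrays with TSA lay below all others. The probe was 2.38-fold lower with the combined treatment than in siCONT with mock (log2 change −1.25 ± 0.16 SE; limma, adjusted p = 0.00155). With siCONT as 1 sample, the adjusted p was 0.0496.

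The 2 probes named TUBA1C, also an alpha-tubulin, did not move alike. The probe A_24_P188071, which lists TUBA1C alone, read 8.46 and 8.46, then 8.12 and 8.17, then 8.64 and 8.59, and 7.87 and 7.88, in the order siCONT and siUHRF1 with mock, siCONT and siUHRF1 with TSA. Its combined change was −0.58 ± 0.10 (SE), or 1.5-fold lower, which is below the 2-fold minimum (limma, adjusted p = 0.00573, or 0.184 with siCONT as 1 sample). The probe A_24_P58529, which lists TUBA1B as well, read 6.46 and 6.48, 6.33 and 5.96, 6.22 and 6.23, and 5.08 and 5.22. Its combined change was −1.32 ± 0.15 (SE), or 2.5-fold lower, and was called (limma, adjusted p = 0.0012, or 0.0425 with siCONT as 1 sample). Over the 8 arrays its level had a Pearson r of 0.998 with the TUBA1A probe, as a description of arrays that fall into 4 groups. Which of the alpha-tubulin RNAs this probe measured was not tested.

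TUBB3 was the only member called higher with the combined treatment, and it was higher wherever TSA was given. It read 4.75 and 4.80 in siCONT with mock and 4.54 and 4.25 in siUHRF1 with mock. With TSA it read 6.08 and 6.04 in siCONT and 6.20 and 6.13 in the siUHRF1 arrays. The TSA arrays all lay above the mock arrays. TSA raised the probe 2.44-fold in siCONT (1.29 ± 0.13 SE; limma, adjusted p = 0.00145, or 0.119 with siCONT as 1 sample) and 3.42-fold in UHRF1-depleted cells (1.77 ± 0.13 SE; adjusted p = 0.0004, or 0.00896). Depletion under TSA changed it by 0.11 (limma, adjusted p = 0.613), a value that became −0.25 when arrays were scaled to their medians. The combined change was 1.39 ± 0.13 (SE; limma, adjusted p = 0.000646, or 0.0323), and 0.99 under median scaling, just below 2-fold. Of the 10 neuronal markers, RBFOX3 was above background on all 8 arrays, SNAP25 on 5 and SYP on 1, and the 7 named above on none. The RBFOX3 probe lists no RefSeq gene, and whether it measured that RNA was not tested. The part of these markers in the result was not tested.

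TUBB2A, a beta-tubulin made in many tissues, was also higher with TSA. The probe A_33_P3365002 read 2.14 and 2.18 in siCONT with mock, 2.02 and 1.94 in siUHRF1 with mock, 3.29 and 3.21 in siCONT with TSA, and 3.04 and 2.99 in siUHRF1 with TSA. TSA raised it 2.13-fold in siCONT (limma, adjusted p = 0.00131, or 0.139 with siCONT as 1 sample) and 2.05-fold in depleted cells (adjusted p = 0.00115, or 0.0291). The probe A_23_P19291 read 5.45 and 5.50, 5.08 and 5.35, 6.03 and 6.06, and 5.77 and 5.64 in the same order of groups. Its TSA changes of 0.57 and 0.49 were in the same direction and under 2-fold. The limma adjusted p were 0.0195 and 0.0308, or 0.38 and 0.192 with siCONT as 1 sample. Against siCONT with mock, the combined changes of the 2 probes were 0.85 and 0.23, neither called. The latter became −0.17 under median scaling.

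TUBB2B, the neighbour of TUBB2A and known chiefly from the developing brain, was above background only on the siUHRF1 arrays with TSA. It read −2.13 and −3.10 there, against −3.83 and −3.75 in siCONT with mock, −3.38 and −5.17 in siUHRF1 with mock, and −4.24 and −3.67 in siCONT with TSA, where it was not well above background. The bright group was at least 1.72-fold higher than siCONT with mock, 2.16-fold higher than siCONT with TSA and 1.74-fold higher than siUHRF1 with mock. The probe entered these tests only through siUHRF1 with TSA, and none of the measured differences passed the limma test (adjusted p = 0.161, 0.178 and 0.0759).

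TUBB6, a beta-tubulin of non-neuronal cells, was lower on the siUHRF1 arrays with either agent. It read 6.04 and 6.17 in siCONT with mock and 5.38 and 5.22 in siUHRF1 with mock, and 6.35 and 6.35 in siCONT with TSA and 5.90 and 5.72 in siUHRF1 with TSA. Depletion changed it by −0.81 ± 0.13 (SE) with mock and −0.54 ± 0.13 with TSA, both under 2-fold (limma, adjusted p = 0.0235 and 0.0375). With siCONT as 1 sample, the adjusted p were 0.488 and 0.449.

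TUBG1, the gamma-tubulin of the centrosome, fell with the combined treatment on both of its probes. The probe A_33_P3363898 read 5.37 and 5.38 in siCONT with mock, 4.65 and 4.55 in siUHRF1 with mock, 4.81 and 4.75 in siCONT with TSA, and 4.21 and 3.78 in siUHRF1 with TSA. It was 2.6-fold lower with the combined treatment (limma, adjusted p = 0.00128, or 0.0412 with siCONT as 1 sample). The probe A_23_P152768, which resembles the TUBG2 probe, read 1.68 and 1.67, 1.19 and 0.74, 1.24 and 1.37, and 0.76 and 0.49. It was 2.07-fold lower (limma, adjusted p = 0.00514), and the call was lost with siCONT as 1 sample (adjusted p = 0.088). Without the second siUHRF1 array with TSA its change was −0.92, under 2-fold.

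The counts of called member probes were read against the share of all tested probes called in the same comparison. Depletion with mock called 0 of 13 tested member probes, against 4.12% of all probes, although limma gave 6 an adjusted p, and 9 an unadjusted p, under 0.05 with changes under 2-fold. The methods' t-test likewise called 0 here. TSA in siCONT called 5 of 13 (38.5%), against 18.6% of all probes, with TUBB3 and 1 TUBB2A probe higher and the 3 TUBA4A probes lower. The combined treatment against siCONT with mock called 9 of 14 (64.3%), against 25.6%, with 1 higher and 8 lower. Depletion under TSA called 2 of 14 (14.3%), against 8.27%, the probes of TUBA1A and A_24_P58529, both lower by 2.11-fold. TSA in depleted cells called 6 of 14 (42.9%), against 20.7%, with 2 higher and 4 lower, TUBA1B among the latter. The interaction of depletion and TSA called 0 of 14, against 4.9%, and in limma no member had an adjusted p under 0.05, while 5 had an unadjusted p under 0.05. These comparisons share arrays, and the 14 probes of 9 genes are not independent of each other.

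The same counts with siCONT as 1 sample were 0, 0, 8, 0, 6 and 0. Over all probes that fit called 5, 368, 3661, 166, 4211 and 0. The median change of the tested members was −0.50, −0.24, −1.15, −0.70, −0.47 and 0.00, against −0.10, −0.11, −0.14, 0.00, −0.04 and 0.06 over all tested probes. Median scaling moved the latter to −0.11, −0.16, −0.54, −0.35, −0.43 and −0.28, and no called member changed direction under it.

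**Figure D2:**
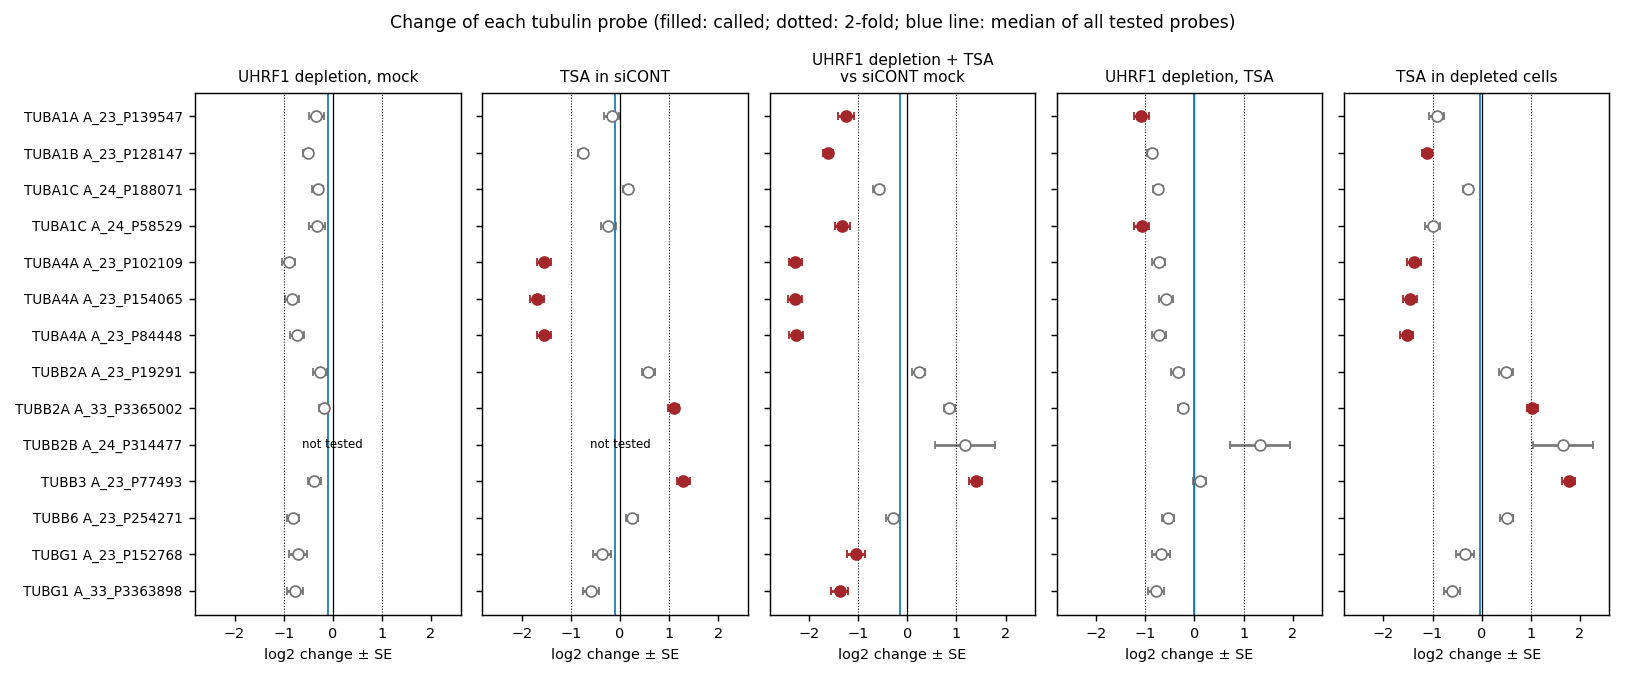
Change of each tubulin probe in 5 comparisons. The horizontal axis is the log2 change with its SE from limma, filled points are called, dotted lines mark 2-fold and the blue line is the median over all tested probes. In the combined treatment 8 probes lie at or below −1.05 and TUBB3 at 1.39.

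The response to TSA was set side by side between siCONT and each siRNA against UHRF1, which share no array. TUBA4A (A_23_P154065) changed by −1.70 in siCONT, −1.31 with siUHRF1-1 and −1.60 with siUHRF1-2. TUBB3 changed by 1.29, 1.67 and 1.88, and TUBB2A (A_33_P3365002) by 1.09, 1.01 and 1.06. For these genes the sign was the same in all 3. TUBA1A changed by −0.17 in siCONT, −1.18 with siUHRF1-1 and −0.66 with siUHRF1-2, and A_24_P58529 by −0.24, −1.25 and −0.74. The interaction was −0.75 ± 0.22 (SE) for both of these probes, with limma adjusted p of 0.0975 and 0.0909, so the difference in the TSA response did not pass the threshold. TUBA1C (A_24_P188071) changed by 0.16, −0.26 and −0.29, with an interaction of −0.43 ± 0.15 (limma, adjusted p = 0.13).

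**Figure D3:**
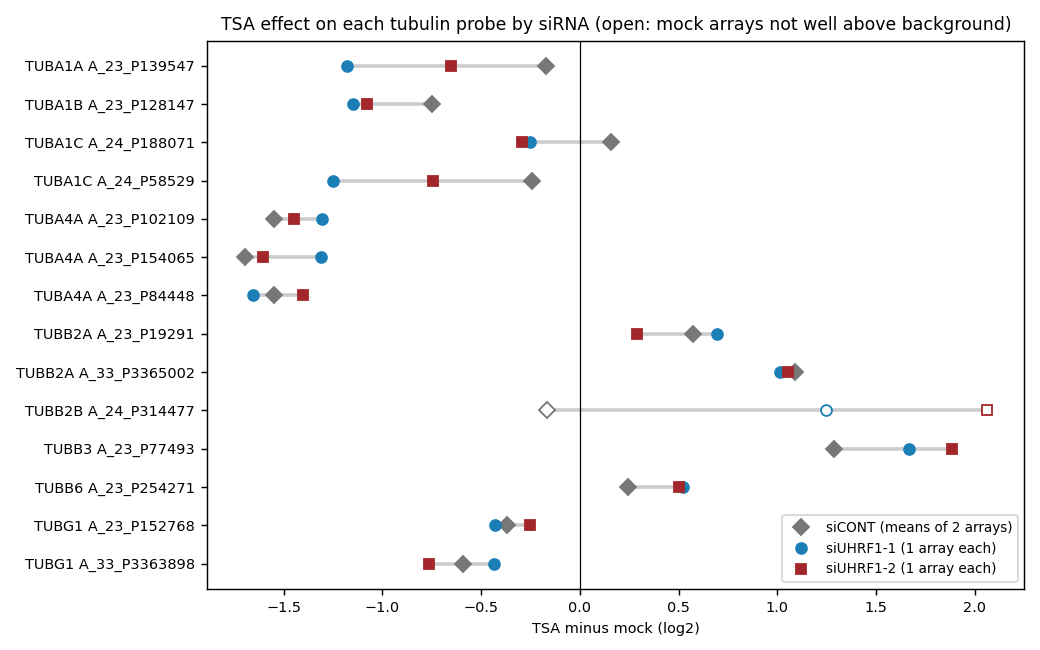
TSA minus mock (log2 level) for each tubulin probe in siCONT (means of 2 arrays) and with each siRNA against UHRF1 (1 array per agent). TUBB3, TUBB2A and TUBB6 lie to the right of 0 for every siRNA, TUBA4A, TUBA1B and TUBG1 to the left, and the TUBA1A and A_24_P58529 points spread most among the probes above background.

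The siRNAs were compared by the level left relative to siCONT. With mock, siUHRF1-1 left 90.9% of TUBA1A and siUHRF1-2 left 69.3%. With TSA the corresponding values were 45.1% and 49.6%. TUBA1B had 72.0% and 69.5% with mock and 54.7% and 55.4% with TSA. TUBA4A (A_23_P154065) had 57.5% and 55.6% with mock and 75.1% and 59.4% with TSA. For TUBB6 the values were 60.3% and 54.1% with mock and 73.1% and 64.7% with TSA. Each value comes from 1 siUHRF1 array, so differences between the siRNAs have no replicate.

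The promoters of TUBA4A, which fell with TSA, and of TUBB2A and TUBB3, which rose, are shown with the motifs a search found. The windows are the 120 bases before the RefSeq start (GRCh38.p14), written 5′ to 3′ on the strand of the gene. Capitals mark the GC box (GGGCGG), the CCAAT box, the TATA motif (spelled TATAA) and the core of the cAMP response element (TGACG) on either strand, and adjoining matches run together. The TUBA4A window is chr2:219253919-219254038 (minus strand), that of TUBB2A chr6:3157545-3157664 (minus strand) and that of TUBB3 chr16:89923222-89923341 (plus strand):
TUBA4A: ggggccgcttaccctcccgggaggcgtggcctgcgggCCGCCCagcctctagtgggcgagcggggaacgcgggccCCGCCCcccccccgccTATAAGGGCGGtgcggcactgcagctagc
TUBB2A: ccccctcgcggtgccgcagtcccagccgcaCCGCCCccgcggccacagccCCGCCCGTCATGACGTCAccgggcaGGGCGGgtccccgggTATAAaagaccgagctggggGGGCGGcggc
TUBB3: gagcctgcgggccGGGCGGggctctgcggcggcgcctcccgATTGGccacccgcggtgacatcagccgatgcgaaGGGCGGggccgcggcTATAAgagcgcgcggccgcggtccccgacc
Counted over 300 bases around the start, these promoters held 4, 5 and 5 GC boxes, 1 TATA motif each, and 28, 41 and 47 CpG. The cAMP response element core had 3 matches at TUBB2A, 2 of which overlap on opposite strands, and 0 at the others. The CCAAT box occurred once at TUBB3. Of 35116 RefSeq promoters of that length, 45.0% held the GC box, 34.6% the CCAAT box, 20.4% the TATA motif and 24.6% the cAMP response element core, and the median number of CpG was 14. A second TUBB3 start in RefSeq had 9 CpG and none of these motifs. TUBA1A held 2 CCAAT boxes and no GC box, and TUBA1B 3 GC boxes and no CCAAT box. A match is a run of letters and not a shown binding site, and GC boxes and the TATA motif were held by TUBA4A, which fell with TSA, as well as by TUBB2A and TUBB3.

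The genes whose levels were most like those of a member were sought among 6572 probes above background on all arrays that varied at least 2-fold. For TUBA4A they were H4C13, a replication-dependent histone gene, and LONRF3, each with a Pearson r of 0.997 over 8 arrays. TUBA1A was followed by A_24_P58529 and by PLK4, the kinase that starts centriole duplication (both 0.998). TUBA1B was followed by FHOD1, an actin-regulating formin, and POLD3, a DNA polymerase delta subunit (both 0.998). For TUBB3 they were EID3 and the slow skeletal troponin gene TNNT1 (both 0.999), for TUBB6 JUN (0.991) and MPZL3 (0.985), and for TUBG1 UCK2 (0.991) and MRPL24 (0.990). The arrays fall into 4 groups, so such values describe group levels more than single arrays. TUBA1C and TUBB2A varied less than 2-fold on their brightest probes, and TUBB2B was not measured on all arrays.

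Other tubulin genes were taken from a list of 14, of which 12 were on the array and 10 were tested in the combined treatment. Of these 4 fell and 1 rose, so 5 of 10 were called against 25.6% of all probes, and the median change was −0.77 against −0.14 over all probes. TUBB, the housekeeping beta-tubulin, fell by 1.75 (limma, adjusted p = 0.000911), TUBB4B fell by 1.53 (0.000508) and the probe named TUBB8 fell by 1.42 (0.000534). Whether the TUBB8 probe also measured other beta-tubulin RNA was not tested. TUBA3C, whose probe also lists TUBA3D, fell by 1.95 (limma, adjusted p = 0.00205). The probe named TUBA3D, which also lists TUBA3E, changed by 0.40 and was not called (limma, adjusted p = 0.188). TUBAL3, the 1 that rose, was not well above background in siCONT with mock and was at least 2.26-fold higher with the combined treatment. It entered this test only through its bright group. Its limma adjusted p of 8.21e-05 belongs to the measured change of 3.19, which used the dim siCONT values, and not to the bound. The probes of TUBB1, the isotype of platelets, and TUBB4A, a brain isotype, were above background on no array.

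All 9 genes of the gamma-tubulin ring complex list were measured, with 0 higher, 4 lower and a median change of −0.87 in the combined treatment. The 4 of 9 called stand against 25.6% of all probes. MZT1, a small subunit that helps recruit the complex, fell by 2.89 (limma, adjusted p = 0.0104), and TUBGCP4 fell by 2.05 (0.00279). MZT2B, whose probe also lists MZT2A, fell by 1.17 (0.000833), and NEDD1, which anchors the complex to the centrosome and spindle, fell by 1.15 (0.000849). With siCONT as 1 sample, MZT1 had an adjusted p of 0.0781 and the other 3 of 0.0416 to 0.0463. TUBGCP3, a core subunit, was called in the interaction: TSA raised it by 1.23 in siCONT, and the interaction was −1.95 ± 0.21 (SE; limma, adjusted p = 0.0147, or 0.335 with siCONT as 1 sample).

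The list of tubulin folding and autoregulation genes, which holds the CCT chaperonin, prefoldins and tubulin cofactors, had 21 of 22 genes tested. In the combined treatment limma called 0 of these 21, against 25.6% of all probes, and the median change was −0.35. An adjusted p under 0.05 was reached by 10 and an unadjusted p under 0.05 by 11, with every such change under 2-fold. The share of all probes that passed without the fold minimum is not given. Of the tubulin modifying enzymes 16 of 26 were tested, with 2 higher, 1 lower and a median change of 0.05. The 3 of 16 called stand against 25.6% of all probes, and in limma 9 had an adjusted p under 0.05. SIRT2, a deacetylase of alpha-tubulin, rose by 2.11 (limma, adjusted p = 0.000359), and TTLL7, which adds glutamate chains to beta-tubulin, rose by 1.44 (0.000774). MATCAP1, a tyrosine carboxypeptidase acting on alpha-tubulin, fell by 1.04 (0.00148, or 0.0624 with siCONT as 1 sample). HDAC6, the other main deacetylase of alpha-tubulin, had a change of −0.20 (limma, adjusted p = 0.161).

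Of 30 microtubule-binding and severing proteins 22 were tested, with 4 higher, 5 lower and a median of −0.30, or 9 of 22 called against 25.6% of all probes. MAPRE2, which binds growing ends, rose by 2.36 (limma, adjusted p = 0.000176) and MAP2, a neuronal stabilizing protein, by 2.27 (0.0111, or 0.0851 with siCONT as 1 sample). MAP1A was not well above background in siCONT with mock, entered the test only through its bright group and was at least 2.82-fold higher. Its limma adjusted p of 0.00121 belongs to the measured change of 3.43, which used the dim siCONT values, and not to the bound. KIF2C, a kinesin that disassembles microtubule ends in mitosis, fell by 3.29 (limma, adjusted p = 0.00055). TPX2, a spindle assembly factor, fell by 2.01 (0.00134), and KIF2A fell by 1.13 (0.0412, or 0.201 with siCONT as 1 sample). Placing genes that were dim in a group at their bounds left all of these medians as given.

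**Figure D4:**
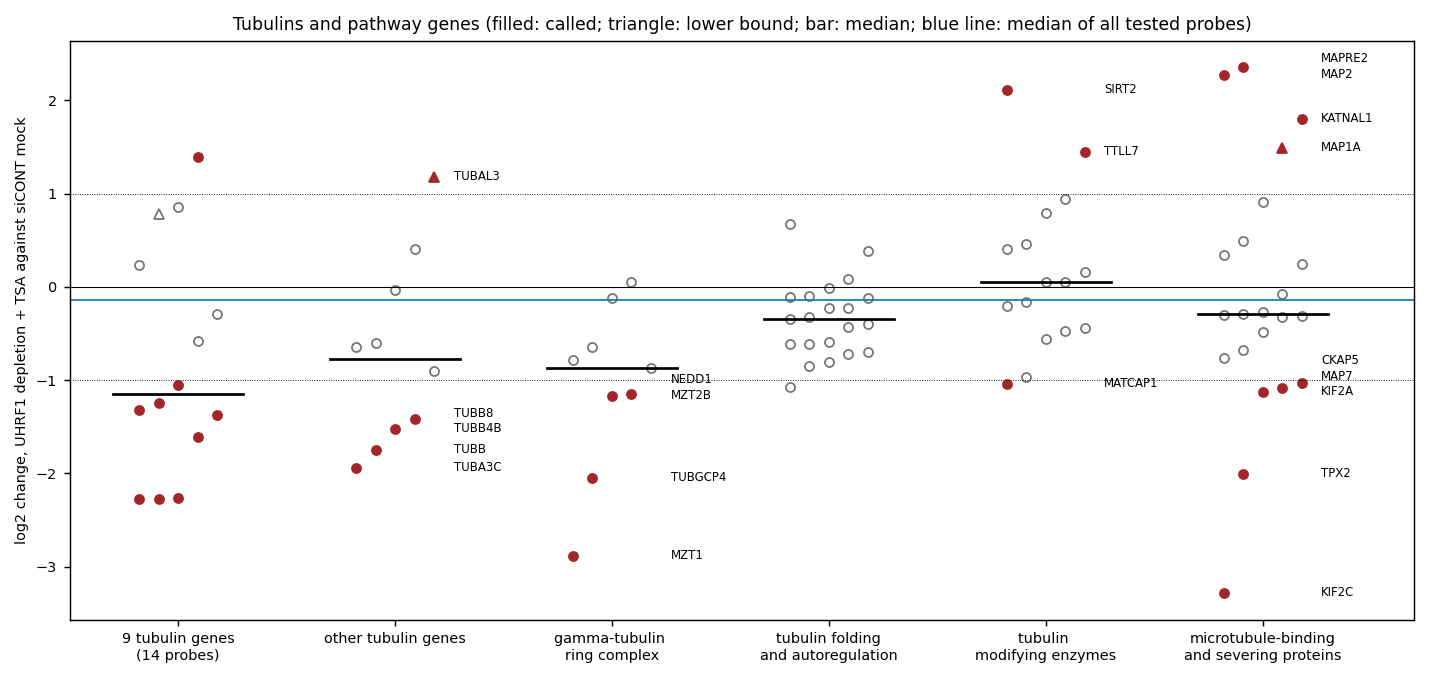
Log2 change of the tubulin members and of 5 lists of related genes in siUHRF1 with TSA against siCONT with mock. Points are probes (1 per gene outside the members), filled when called, triangles are lower bounds, bars are medians and the blue line is the median of all tested probes. The medians of the members, of the other tubulin genes and of the gamma-tubulin ring complex lie at −1.15, −0.77 and −0.87.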

How the data were processed

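Total RNA of 8 samples was measured on single-colour (Cy3) Agilent arrays. The deposited files hold 1 linear processed intensity per spot, with flags for spots above background, saturated or outlying, from the authors' extraction with Agilent Feature Extraction (local background subtracted, no scaling between arrays). The authors' series matrix holds the same intensity per spot to 3 significant digits. Coordinates are those of the files (hg19).

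Spots of a probe were averaged on the log2 scale without outlier spots (no spot was saturated), and the array's 75th percentile over 50599 non-control probes was subtracted (43.3% to 48.0% of probes well above background, 75th percentile intensity 137 to 189). All arrays were on 1 slide in 1 scan. limma 3.58.1 in R 4.3.3 fitted 4 group means to 8 arrays with 4 residual degrees of freedom. A probe entered a comparison if either group compared (for the interaction, any group) had it well above background on both of its arrays. Tests were two-sided with Benjamini-Hochberg adjustment, and a call needed an adjusted p under 0.05 and 2-fold. The number of arrays limits the precision.

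Where a probe was dim throughout a group, a bound is given: the bright group's mean over the dim group's mean, each dim array being set to its detection floor (its lowest signal that was well above background) or to the probe's own signal if higher. For the lists, a gene's brightest probe was used, and up to 3 genes called in each direction were named by size. TUBB8, TUBA3D, HDAC6, TUBGCP3, NEDD1, CKAP5, MAP7 and the genes below background were named after their values were seen. The members and lists were chosen with earlier results of these data known. Alternatives were other scalings, normexp background, filters on dim probes, no fold minimum, siCONT averaged to 1 sample, a replicate block, an equal-variance t-test, series matrix values and leaving out each array. The t-test was chosen here, as the paper names no test for its arrays. In simulated data with 24589 probes, the fit of the combined treatment recovered 26% of 2-fold and 50% of 4-fold changes, with 50 probes changed at each size. No fold minimum was applied there, and far fewer probes were changed than the 25.6% called in the data. These rates are therefore not the recovery of the calls reported above. Promoter sequences came from RefSeq (GRCh38.p14). Probe sequences were compared for the gamma-tubulin genes, without gaps, and another comparison of probe sequences is not reported here.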

Additional observations from a re-analysis of the deposited data

How the results depend on the processing

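Counts of called member probes are given in the order depletion with mock, TSA in siCONT, combined treatment, depletion under TSA and TSA in depleted cells, and were 0, 5, 9, 2 and 6. Without the fold minimum they were 6, 8, 11, 9 and 11. With siCONT averaged to 1 sample, TSA in siCONT and depletion under TSA both called 0. For depletion under TSA, scaling to the array median called 8, and the 75th percentile over probes detected on all arrays called 0. Median scaling moved the median change of all tested probes in that comparison from 0.00 to −0.35. Apart from siCONT as 1 sample, the share of all probes called under an alternative is not given, so these counts cannot be set against it. At an unadjusted p under 0.05 the equal-variance t-test gave the same 5 counts. This t-test, once adjusted by Benjamini-Hochberg, called 7 for the combined treatment (both TUBG1 probes were lost), 0 for depletion under TSA and 0 for TSA in depleted cells. Leaving out single arrays gave 0 to 0, 5 to 5, 8 to 9, 0 to 3 and 6 to 7. Depletion under TSA called 0 without either siCONT array with TSA. The interaction called 0 under every alternative run, and the t-test was not run for it. With replicate number as a block the counts were 0, 5, 9, 2, 6 and 0, as without it. Deviations of same-numbered arrays had r of 0.337 between the siUHRF1 groups and −0.056 to 0.074 otherwise, so the number, which marks the siRNA in the siUHRF1 groups, did not pair the arrays across all groups. No called probe changed direction under any alternative run. The cause of these shifts was not tested.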
